A study of Mus musculus with 16 samples.

Results

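The forkhead family was examined in TM4 cells, an established mouse line of Sertoli-like cells. Its members were taken from the protein-coding genes of the counts table with a symbol made of Fox, a letter from a to s and a number, and 43 of the 56748 genes of the table are described. The cells received 2.5 µg plasmid per well 24 h after seeding, and RNA was taken 24 h after transfection. The plasmid carried *gdf6Y*, the candidate sex-determining gene of the turquoise killifish, in 5 samples, its mutated form del9 in 5 samples, or no insert in 6 samples with the empty vector (EV), which went through the same transfection. Strand-specific libraries were made from polyadenylated RNA, with 300 ng total RNA as input, and reads per mouse gene were counted. *gdf6Y* was compared with both control plasmids to find genes that respond to Gdf6Y, and del9 with EV shows how the mutant differs from an empty plasmid.

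The transfection was transient, the share of transfected cells is not given, the protein is that of a fish, and transcripts of the plasmids were not analysed here. The labels do not say that replicates are separate cultures, so the spread between these samples may be technical. How far the tests use the spread of each gene is given with them. The 16 samples held between 21486850 and 26444903 counted reads. Of 11 Sertoli cell markers, 5 had a mean count of at least 10, and *Wt1* and *Dmrt1* had no read. The summed normalized counts of this list were 1682 to 1770 in EV, 1497 to 1619 in *gdf6Y* and 1570 to 1734 in del9 samples. Most of the sum came from *Gata4* and *Kitl*, with means of 831 and 707 in EV. Of the 4 peritubular myoid cell markers, 3 had a mean count of at least 10. Their sums were 4478 to 4714 in EV, 4710 to 5057 in *gdf6Y* and 4571 to 4840 in del9 samples. Nearly all of it was *Acta2*, with a mean of 4530 in EV. At this count were 1 of 6 Leydig cell, 0 of 5 germ cell, 0 of 4 endothelial and 1 of 4 macrophage markers. In *gdf6Y* against EV, 1 Sertoli cell marker was called, *Gata4*, with a log2 fold change of -0.20 ± 0.04 (SE; edgeR adjusted p = 9.98e-05). No other marker of these lists was called in any comparison of this fit. The fit after edgeR's filterByExpr, described below, also called *Gata4* in *gdf6Y* against EV (edgeR adjusted p = 0.000799). It called *Acta2* as well, higher with *gdf6Y* than with EV (log2 fold change 0.08 ± 0.02, SE; edgeR adjusted p = 0.0416). The part of these differences in the results on forkhead genes was not tested.

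Forkhead proteins bind DNA through a winged-helix domain, and their subfamilies are named by letter. FoxO proteins are kept out of the nucleus when insulin or growth factor signals activate Akt, and in the nucleus they switch on genes of cell cycle arrest, stress defence and metabolism. Foxm1 drives genes of the G2 phase and of mitosis in dividing cells. Foxc1 acts in mesenchyme, including that of the eye, skull, vessels and the embryonic gonad. In Sertoli cells, FSH acts through Akt on Foxo1, and Gdf6, the mouse relative of the killifish protein, signals as a bone morphogenetic protein (BMP) through Smad proteins.

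Of these 43 genes, transcripts of 15 were expressed in TM4 cells, taken as a mean count of at least 10 over all samples. A further 14 genes had at least 1 read in any sample but stayed below this mean and are called trace genes here, and 14 had no read. The level per length was taken as TPM, a share of all transcripts that corrects for depth and gene length, and put *Foxm1* first at 205 ± 4.39 (SD, n = 6) in EV samples. It was followed by *Foxk2*, which encodes a repressor of autophagy genes, at 151 ± 1.82 TPM, and by *Foxc1* at 117 ± 5.03 TPM. These 3 genes made up 56.4% of the summed TPM of the 43 genes in EV samples. The lowest expressed gene was *Foxn3*, which encodes a transcriptional repressor, at 8.43 ± 0.480 TPM.

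Between these ends, *Foxp4* stood at 71.4 TPM and *Foxo1* at 45.8 TPM in EV samples. *Foxo4* at 40.6, *Foxf2* at 37.7 and *Foxj2* at 36.8 TPM followed. No neighbours overlapped between EV samples down to *Foxo1*, while *Foxo1* and *Foxo4*, *Foxo4* and *Foxf2*, and *Foxf2* and *Foxj2* did, so their order is not resolved. *Foxn2* had 30.8, *Foxk1* 27.6, *Foxo3* 19.8, *Foxp1* 18.9 and *Foxj3* 16.8 TPM, and among neighbours in this order only the samples of *Foxo3* and *Foxp1* overlapped. *Foxs1* had 9.02 ± 2.22 TPM (SD, n = 6) and overlapped with *Foxn3*.

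**Figure D1:**
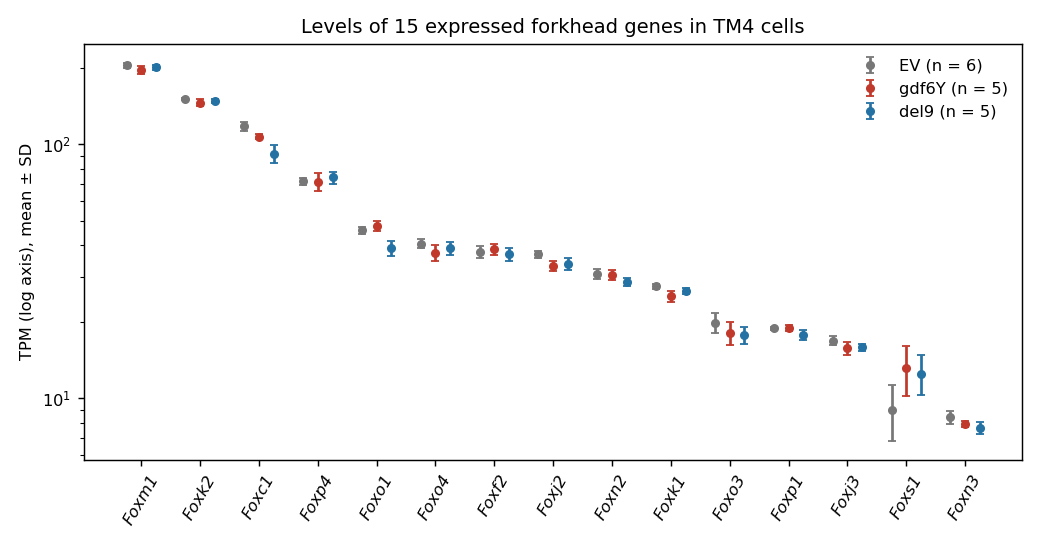
Level of each expressed forkhead gene in TPM on a log axis, as mean ± SD of 6 EV (grey), 5 *gdf6Y* (red) and 5 del9 (blue) samples, ordered by the level in EV. The genes span from 205 TPM for *Foxm1* to 8.43 TPM for *Foxn3* in EV.

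The expressed genes often had paralogs without expression. In the FoxO subfamily, *Foxo1*, *Foxo3* and *Foxo4* were expressed, and *Foxo6* had at most 3 reads in a sample. *Foxp1* and *Foxp4* were expressed, whereas *Foxp2* had 1 read in all samples together and *Foxp3*, the regulator of regulatory T cells, had at most 5 in a sample. Both FoxK genes were expressed. Of the FoxJ genes, *Foxj2* and *Foxj3* were expressed and *Foxj1*, which directs the formation of motile cilia, had at most 3 reads. Of the FoxN genes, *Foxn2* and *Foxn3* were expressed, *Foxn1*, needed for the thymus, had at most 6 reads in a sample and *Foxn4* had 1 read in all.

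No member of the FoxB, FoxE, FoxI or FoxQ subfamilies had a read, nor did *Foxa1*, *Foxa2*, *Foxd1*, *Foxd3*, *Foxd4* or *Foxr1*. A count of 0 allows up to 3 counts per library, which is 0.113 to 0.14 CPM at these depths and covers counting error only. The highest count of a trace gene was 7, for *Foxd2*, and *Foxl1* had the highest mean, 4.062 reads. Single reads were counted over all samples for *Foxc2*, *Foxl3*, *Foxn4*, *Foxp2* and *Foxr2*. *Foxh1*, whose protein carries Smad2 and Smad3 to DNA, had at most 6 reads in a sample. The 28 trace and silent genes together made up 0.159% of the TPM of the 43 genes in EV samples.

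*Foxc1*, *Foxf2* and *Foxq1* lie close together on chromosome 13. *Foxc2* and *Foxf1*, of the same subfamilies as *Foxc1* and *Foxf2*, lie close together on chromosome 8 with *Foxl1*, of another subfamily. On chromosome 13, *Foxc1* and *Foxf2* were expressed and *Foxq1* had no read. On chromosome 8, all of these 3 genes were trace genes, with means between 0.062 and 4.062 reads.

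Differences between groups were tested with edgeR's quasi-likelihood test over all genes with 1 or more counts in a sample of the comparison, and a gene was called at a Benjamini-Hochberg adjusted p-value below 0.05. With this filter, the test hardly used the spread of each single gene: the prior degrees of freedom were 738.4 for *gdf6Y* against EV and infinite in the other comparisons. After edgeR's filterByExpr, which leaves out genes of low counts, they were 9.57, 10.0 and 10.9 for *gdf6Y* against EV, *gdf6Y* against del9 and del9 against EV. The adjusted p-value of this filtered fit is therefore given beside each call. Standard errors in the text are those of the fit without this filter unless stated, so they hardly hold a gene's own spread. In the filtered fit, that of *Foxc1* in del9 against EV was 0.041 rather than 0.029. That of *Foxj2* in *gdf6Y* against EV was 0.034 rather than 0.037. Comparisons with EV share the EV samples, and each group enters 2 comparisons, so the comparisons are not independent. Normalized counts are counts scaled to the mean effective library size, and since whole cultures were sequenced, fewer cells with a transcript and less RNA per cell cannot be told apart.

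Of the 28 forkhead genes tested between *gdf6Y* and EV, *Foxs1* was upregulated and *Foxc1* and *Foxj2* were downregulated. These 3 calls compare with 5.08% of all genes tested (1.7% higher, 3.38% lower) and with 10.5% of the genes averaging 10 or more counts. In the filtered fit, the same 3 of 15 genes were called, against 9.31% of all genes in it. Between *gdf6Y* and del9, 27 forkhead genes were tested and *Foxo1* and *Foxc1* were higher with *gdf6Y*. These 2 calls were 7.41% of the 27, beside 1.01% of all genes (0.599% higher, 0.41% lower). They were 13.3% of the 15 expressed genes, beside 1.8% of the genes averaging 10 or more counts. The filtered fit, with a background of 0.356%, called the same 2 forkhead genes.

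Between del9 and EV, 5 of 27 forkhead genes were called, *Foxs1* and *Foxp4* higher and *Foxc1*, *Foxo1* and *Foxo3* lower with del9. These 5 calls were 18.5% of the 27, beside 9.25% of all genes (4.82% higher, 4.43% lower). They were 33.3% of the 15 expressed genes, beside 18.2% of the genes averaging 10 or more counts. The filtered fit kept *Foxc1*, *Foxo1* and *Foxs1*, 3 of 15, at a background of 16.7%, and lost the others. In no comparison was a trace gene called. The median log2 fold change of the 15 expressed genes was -0.03, 0.04 and -0.05 for *gdf6Y* against EV, *gdf6Y* against del9 and del9 against EV, beside medians of 0.00085, -0.0042 and 0.0053 over the 12584 genes averaging 10 or more counts.

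**Figure D2:**
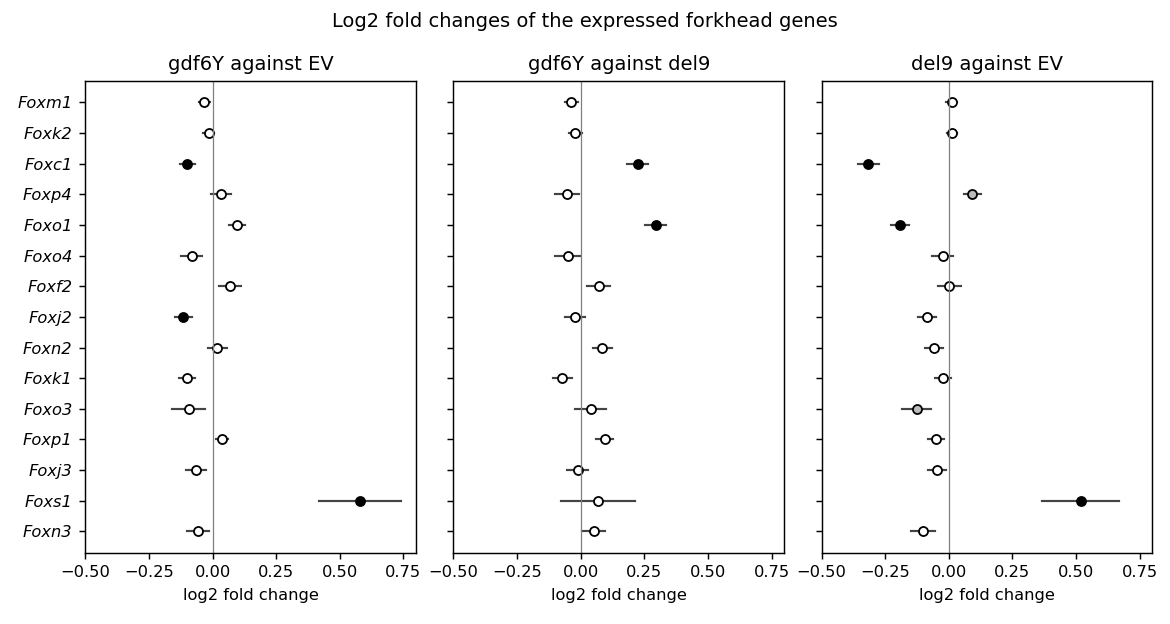
Log2 fold changes of the 15 expressed forkhead genes in the 3 comparisons, with bars of ± 1 SE of the fit after filterByExpr. Black points were called in both fits, grey points only without filterByExpr, and open points in neither. *Foxc1* lies below 0 against EV in both comparisons, and *Foxo1* stands at 0.29 in *gdf6Y* against del9.

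*Foxc1* (ENSMUSG00000050295) lies at chr13:31990616-31996459 on the plus strand of GRCm39. Its normalized counts in EV samples were lowest at 3261, had a median of 3364 and were highest at 3709.7. The *gdf6Y* samples held 3244, 3094.5, 3132, 3269.7 and 3165 normalized counts, and the del9 samples 2955, 2780.0, 2453, 2872 and 2605. Every del9 sample was below every EV and every *gdf6Y* sample, while *gdf6Y* replicate 4 lay just above the lowest EV sample. The means were 3411 ± 159 (SD, n = 6) in EV, 3181 ± 74.1 (SD, n = 5) in *gdf6Y* and 2733 ± 203 (SD, n = 5) in del9.

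With del9, *Foxc1* fell by 19.7% against EV, a log2 fold change of -0.32 ± 0.03 (SE; edgeR adjusted p = 3.33e-24, and 0.000163 in the filtered fit). It was 16.7% higher with *gdf6Y* than with del9, a log2 fold change of 0.22 ± 0.03 (SE; edgeR adjusted p = 1.89e-08, filtered 0.0129). In the fit without filterByExpr, both calls were kept whichever library was left out. Libraries were not left out in the filtered fit. With *gdf6Y*, *Foxc1* fell by 6.65% against EV, a log2 fold change of -0.10 ± 0.03 (SE; edgeR adjusted p = 0.0208, filtered 0.0424). That call was lost without EV replicate 1 (log2 fold change -0.07), EV replicate 4 (-0.09), *gdf6Y* replicate 2 (-0.09) or *gdf6Y* replicate 3 (-0.09).

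The nearest protein-coding genes to *Foxc1* were *Foxf2*, 174223 bp before it, and *Gmds*, 6313 bp after it. Neither was called in any comparison. *Foxf2*, a mesenchymal factor, had log2 fold changes of 0.07 ± 0.04 (*gdf6Y* against EV), 0.07 ± 0.05 (*gdf6Y* against del9) and 0.0021 ± 0.04 (del9 against EV). *Gmds*, an enzyme of GDP-fucose synthesis, had 0.01 ± 0.03, 0.02 ± 0.04 and -0.0054 ± 0.03 in the same order.

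*Foxo1* (ENSMUSG00000044167) lies at chr3:52175757-52260642 on the plus strand. In EV samples its normalized counts were lowest at 1951, with a median of 2126 and a highest value of 2195. They were 2404, 2150.1, 2244, 2189.7 and 2252 in *gdf6Y* samples, and 1960.5, 1866, 1678, 1893 and 1799 in del9 samples. All *gdf6Y* samples were above all del9 samples, and the lowest EV sample was just below the highest del9 sample. Means were 2108 ± 83.8 (SD, n = 6) in EV, 2248 ± 96.6 (SD, n = 5) in *gdf6Y* and 1839 ± 107.2 (SD, n = 5) in del9.

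*Foxo1* was 22.6% higher with *gdf6Y* than with del9, a log2 fold change of 0.29 ± 0.04 (SE; edgeR adjusted p = 2.27e-13, filtered 0.000701). Against EV, it fell by 12.5% with del9, a log2 fold change of -0.19 ± 0.03 (SE; edgeR adjusted p = 1.25e-07, filtered 0.0017). In the fit without filterByExpr, neither call depended on a single library. Between *gdf6Y* and EV the log2 fold change was 0.10 ± 0.03 and missed the threshold (edgeR adjusted p = 0.0519, filtered 0.0681). It passed in 4 of 8 alternative fits, namely with RLE size factors (adjusted p = 0.0449), the replicate block (0.00529), the gene length correction (0.00668) and both of the latter (0.000237), all in edgeR. In both *Foxc1* and *Foxo1*, del9 replicate 3 was the lowest and del9 replicate 1 the highest of the del9 samples.

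The nearest neighbours of *Foxo1*, *Maml3*, which encodes a Notch coactivator, and *Cog6*, which encodes a Golgi protein, were not called in any comparison. Between *gdf6Y* and del9 their log2 fold changes were 0.02 ± 0.07 and 0.07 ± 0.04 (edgeR adjusted p = 0.93 and 0.609).

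*Foxo3*, expressed widely among tissues, had 795 to 1034 normalized counts in EV samples with a median of 907. It had 957, 766, 811, 927 and 786 in *gdf6Y* samples and 909, 738, 818, 841 and 847 in del9 samples, so the 3 groups overlapped. Against EV, its log2 fold change with del9 was -0.13 ± 0.04 (SE; edgeR adjusted p = 0.0181), and the call was lost in the filtered fit (adjusted p = 0.12) and without del9 replicate 2 or 3 or EV replicate 1 or 4. With *gdf6Y* against EV it was -0.09 ± 0.04 (edgeR adjusted p = 0.207) and with *gdf6Y* against del9 0.04 ± 0.04 (edgeR adjusted p = 0.743). *Foxo4* was called in no comparison, with log2 fold changes of -0.08, -0.05 and -0.03 for *gdf6Y* against EV, *gdf6Y* against del9 and del9 against EV.

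*Foxs1* (ENSMUSG00000074676), expressed in the neural crest and in cells around vessels, lies at chr2:152773818-152775128 on the minus strand. Its EV samples held 43.0 to 79.9 normalized counts with a median of 59.9. The *gdf6Y* samples held 84.8, 87.4, 81.3, 65.7 and 119, and the del9 samples 63.0, 102.5, 80.04, 78.8 and 93.1. Only replicate 4 of *gdf6Y* was below the highest EV sample, and 2 del9 samples, replicates 1 and 4, were below it.

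*Foxs1* rose by 49.5% with *gdf6Y* against EV, a log2 fold change of 0.58 ± 0.12 (SE; edgeR adjusted p = 7.64e-05, filtered 0.0329). With del9 against EV it rose by 43.2%, a log2 fold change of 0.52 ± 0.12 (SE; edgeR adjusted p = 0.000305, filtered 0.0261). In the fit without filterByExpr, both calls were kept whichever library was left out. DESeq2 gave no adjusted p-value for the first. Between *gdf6Y* and del9 the log2 fold change was 0.07 ± 0.11 (edgeR adjusted p = 0.86), which does not show that the levels are equal. Means were 58.8 ± 14.5 (SD, n = 6) in EV, 87.7 ± 19.5 (SD, n = 5) in *gdf6Y* and 83.5 ± 15.1 (SD, n = 5) in del9. *Foxs1* lies 7190 bp from *Mylk2*, which had 1.90 to 9.84 normalized counts, too few to compare.

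**Figure D3:**
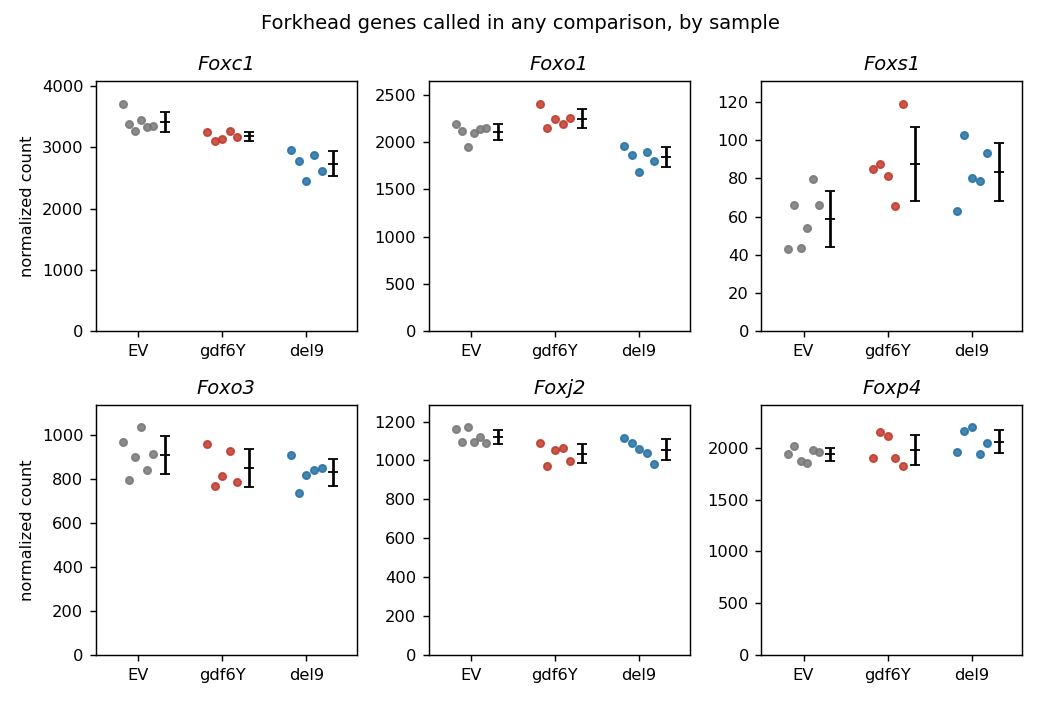
Normalized counts of the 6 forkhead genes called in any comparison, by sample (EV grey, *gdf6Y* red, del9 blue), with mean ± SD beside the points and axes from 0. The *Foxc1* and *Foxo1* samples of del9 lie below all *gdf6Y* samples, and the groups of the other 4 genes overlap in every comparison.

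*Foxj2*, whose protein activates transcription during spermatogenesis and elsewhere, had 1089.7 to 1169.5 normalized counts in EV samples, with a median of 1108. The *gdf6Y* samples held 1092, 969.6, 1054, 1065 and 998, and the del9 samples 1115, 1090.2, 1058, 1037 and 979. Only replicate 1 of *gdf6Y* was above the lowest EV sample. With *gdf6Y* it fell by 7.60% against EV, a log2 fold change of -0.11 ± 0.04 (SE; edgeR adjusted p = 0.0467, filtered 0.0425). The call held in the 8 alternative fits but was lost without EV replicate 1, 3, 4, 5 or 6 or *gdf6Y* replicate 2, 3 or 5. With del9 against EV the log2 fold change was -0.09 ± 0.04 (edgeR adjusted p = 0.137).

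*Foxp4*, which encodes a repressor with a zinc finger and a leucine zipper, had 1850.3 to 2022 normalized counts in EV samples, with a median of 1950.1. The *gdf6Y* samples held 1904, 2152, 2118, 1901 and 1821, and the del9 samples 1960.5, 2160.2, 2197.5, 1944 and 2048. Its log2 fold change of del9 against EV was 0.09 ± 0.03 (SE; edgeR adjusted p = 0.0387, filtered 0.0881). The call was lost in 7 of 8 alternative fits, among them DESeq2 (adjusted p = 0.089), RLE size factors in edgeR (0.0609) and the gene length correction in edgeR (0.144). It was also lost without del9 replicate 2, 3 or 5 or EV replicate 1, 3, 4 or 6. The paralog *Foxp1* had log2 fold changes of 0.04, 0.09 and -0.05 for *gdf6Y* against EV, *gdf6Y* against del9 and del9 against EV and was not called.

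The other 9 expressed genes were called in no comparison. *Foxm1* had log2 fold changes of -0.03 ± 0.03, -0.04 ± 0.03 and 0.01 ± 0.03 for *gdf6Y* against EV, *gdf6Y* against del9 and del9 against EV. *Foxk2* had -0.01 ± 0.03, -0.02 ± 0.03 and 0.01 ± 0.03 in the same order. *Foxk1*, which like *Foxk2* acts on glycolysis and autophagy genes, was 1021 to 1071 normalized counts in EV samples. It held 989.6, 1008, 968, 995 and 899 in *gdf6Y* samples, all below the EV samples, without a call (log2 fold change -0.10 ± 0.04, edgeR adjusted p = 0.112, filtered 0.0553).

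Among the 15 expressed forkhead genes, the samples of *gdf6Y* and EV did not overlap for 1, *Foxk1*, beside 5.24% of the 12584 genes averaging 10 or more counts. For *gdf6Y* against del9 these were *Foxc1* and *Foxo1*, beside 2.19%, and for del9 against EV it was *Foxc1* alone, beside 7.46%.

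The 250 bases before the start of the main transcript are shown for the 3 genes whose calls held in both fits and in more than 1 comparison, *Foxc1*, *Foxo1* and *Foxs1*, and the choice of *Foxo1* and *Foxs1* was made after their values were seen. Capitals mark matches to the GC-rich element of BMP Smads, GGCGCC, or to the Smad box, CAGAC or GTCTG on the other strand. *Foxc1* is read from chr13:31990366-31990615 (plus strand), *Foxo1* from chr3:52175507-52175756 (plus strand) and *Foxs1* from chr2:152775129-152775378 (minus strand) of GRCm39.
Foxc1: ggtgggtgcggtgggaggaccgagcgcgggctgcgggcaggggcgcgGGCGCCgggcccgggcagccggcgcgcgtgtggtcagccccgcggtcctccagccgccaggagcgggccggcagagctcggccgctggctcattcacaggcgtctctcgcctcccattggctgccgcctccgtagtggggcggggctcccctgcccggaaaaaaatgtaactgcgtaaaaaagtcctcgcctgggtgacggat
Foxo1: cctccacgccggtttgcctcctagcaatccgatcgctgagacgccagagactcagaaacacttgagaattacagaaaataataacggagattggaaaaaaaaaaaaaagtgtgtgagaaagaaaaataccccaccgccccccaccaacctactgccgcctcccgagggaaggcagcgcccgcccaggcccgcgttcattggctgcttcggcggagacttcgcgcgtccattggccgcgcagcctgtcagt
Foxs1: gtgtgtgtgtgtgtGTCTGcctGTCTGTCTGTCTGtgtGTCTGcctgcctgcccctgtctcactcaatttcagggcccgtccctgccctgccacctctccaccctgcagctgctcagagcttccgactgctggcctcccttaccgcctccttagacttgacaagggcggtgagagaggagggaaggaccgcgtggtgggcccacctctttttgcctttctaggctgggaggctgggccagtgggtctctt

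The window of *Foxc1* held GGCGCC once, 203 bases before the start, while 9.33% of the 21617 promoters of protein-coding genes held it. The window of *Foxs1* held the Smad box letters 5 times within a short repeat, at 236, 228, 224, 220 and 212 bases before the start. CAGAC or GTCTG is common, at 41.4% of all promoters, and was in 6 of the 15 promoters of expressed forkhead genes. The window of *Foxo1* held neither. The forkhead motif GTAAACA, or TGTTTAC on the other strand, was in none of these 15 promoters and in 2.72% of all promoters. A match of letters does not mark a bound site.

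Genes upstream and downstream of the forkhead proteins were read from 3 lists. The first held 33 regulators of FoxO proteins, such as kinases, 14-3-3 proteins and acetyltransferases. Between *gdf6Y* and EV, 3 of 33 were called (9.09%), all lower with *gdf6Y*, beside 5.08% of all genes and 10.5% of those averaging 10 or more counts. The 5 called in the filtered fit, with a background of 9.31%, included these 3. *Ep300* and *Crebbp*, the acetyltransferases that act on FoxO proteins, had log2 fold changes of -0.24 ± 0.03 and -0.21 ± 0.04 (edgeR adjusted p = 2.89e-12 and 0.00017, filtered 0.00521 and 0.00712). Both stayed called in the 8 alternative fits, between -0.24 and -0.18 for *Ep300* and between -0.23 and -0.16 for *Crebbp*. For *Ep300*, *gdf6Y* replicate 1 held 3746 normalized counts, just below the EV range of 3756 to 4127. The other *gdf6Y* samples held 2811 to 3412. *Pik3r1*, the regulatory subunit of PI3 kinase, had -0.16 ± 0.05 (edgeR adjusted p = 0.0232, filtered 0.021). Its call was lost with the gene length correction in edgeR, alone (adjusted p = 0.115) or with the replicate block (0.0537). It was also lost without *gdf6Y* replicate 3, 4 or 5 or EV replicate 1.

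Between *gdf6Y* and del9, no regulator of FoxO proteins was called in this edgeR fit or with DESeq2, and 4 had an unadjusted p-value below 0.05 in edgeR. Between del9 and EV, 3 regulators were higher and 4 lower with del9 (21.2% of 33), beside 9.25% of all genes and 18.2% of those averaging 10 or more counts. All 7 were among the 9 called in the filtered fit, with a background of 16.7%. *Akt1*, the kinase that keeps FoxO proteins in the cytoplasm, had a log2 fold change of 0.12 ± 0.03, and *Prmt1*, an arginine methyltransferase of Foxo1, 0.12 ± 0.03 (edgeR adjusted p = 9.99e-05 and 0.000264, filtered 0.00198 and 0.00759). *Sgk1*, a kinase related to Akt, had -0.22 ± 0.04, and *Ep300* -0.15 ± 0.03 (edgeR adjusted p = 4.05e-05 and 8.75e-06, filtered 0.00398 and 0.00646).

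The second list held 32 known targets of FoxO proteins, 25 of them with a mean count of at least 10. Between *gdf6Y* and EV, 4 were higher and 5 lower of 30 tested (30.0%), beside 5.08% of all genes and 10.5% of those averaging 10 or more counts. Of these, 6 were called in the filtered fit (background 9.31%). *Irs2*, an insulin receptor substrate, *Insr*, the insulin receptor, and *Gadd45a*, of the DNA damage response, were lower with *gdf6Y*, with log2 fold changes of -0.21 ± 0.03, -0.19 ± 0.03 and -0.18 ± 0.04 (edgeR adjusted p = 1.76e-07, 1.04e-05 and 9.24e-05, filtered 0.000317, 0.0132 and 0.0176). *Cdkn1a*, the cell cycle inhibitor p21, had 0.25 ± 0.05 (edgeR adjusted p = 0.000415), a call lost in the filtered fit (adjusted p = 0.323) and without *gdf6Y* replicate 4 (log2 fold change 0.16). Without *gdf6Y* replicate 5, 5 of the targets were called. For *Insr*, *gdf6Y* replicate 1 held 1574 normalized counts, within the EV range of 1500 to 1627.5. The other *gdf6Y* samples held 1258.5 to 1325.

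Between *gdf6Y* and del9, 5 targets were called of 31 tested (16.1%), all higher with *gdf6Y*, beside 1.01% of all genes and 1.8% of those averaging 10 or more counts. The filtered fit called none of 25 (background 0.356%). Of those 25, 4 had an unadjusted p-value below 0.05, and DESeq2 called 1. *Txnip*, an inhibitor of thioredoxin and of glucose uptake, had 2061, 1572, 1620.1, 1779 and 1939.8 normalized counts in *gdf6Y* samples and 1818, 1548, 1298, 1539 and 1491 in del9 samples. Its log2 fold change was 0.23 ± 0.04 (edgeR adjusted p = 6.27e-07, filtered 0.319). *Ccng2*, an atypical cyclin of arrested cells, held 1681.5, 858, 1150, 1727 and 1479.5 in *gdf6Y* and 1530.0, 726, 893, 1511 and 1075 in del9 samples. At each replicate number the *gdf6Y* sample was the higher, though the labels do not say that the number pairs samples. Its log2 fold change was 0.27 ± 0.04, or ± 0.18 in the filtered fit (edgeR adjusted p = 4.05e-09, filtered 0.681). Without del9 replicate 2 it was 0.14 and not called, and without *gdf6Y* replicate 4 it was 0.18. *Bnip3*, of mitophagy, and *Cited2*, a partner of CBP and p300, had 0.14 ± 0.04 and 0.12 ± 0.03 (edgeR adjusted p = 0.015 and 0.0292, filtered 0.661 and 0.115). The *Bnip3* call was lost without *gdf6Y* replicate 1, 4 or 5 or del9 replicate 2, 3 or 5, with log2 fold changes of 0.08 without *gdf6Y* replicate 4 and 0.07 without del9 replicate 2. The *Cited2* call was lost without *gdf6Y* replicate 3, 4 or 5 or del9 replicate 1, 2, 3 or 4. Leaving out *gdf6Y* replicate 1, 4 or 5 or del9 replicate 2, 3 or 5 reduced the 5 calls to between 1 and 3.

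Between del9 and EV, 2 targets were higher and 10 lower of 30 tested (40.0%), beside 9.25% of all genes and 18.2% of those averaging 10 or more counts. The filtered fit kept 8 of these 12 (background 16.7%). The median log2 fold change of the 25 targets was -0.06, beside 0.0053 over all genes averaging 10 or more counts. *Txnip* and *Insr* were lower with del9, with log2 fold changes of -0.29 ± 0.03 and -0.20 ± 0.03 (edgeR adjusted p = 1.52e-15 and 2.22e-07, filtered 0.0141 and 0.00123). *Ccng2* had -0.27 ± 0.04 and *Cdkn1a* 0.27 ± 0.05, and both calls were lost in the filtered fit (edgeR adjusted p = 1.2e-11 and 2.66e-06, filtered 0.271 and 0.206). Without del9 replicate 2, *Ccng2* had -0.14. In the normalized counts of *Txnip*, EV samples ranged from 1521 to 2122 with a median of 1976, and 1 EV sample lay below the del9 samples of replicates 1, 2 and 4.

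The third list held 27 genes of mitosis and the cell cycle that Foxm1 is known to activate, all with a mean count of at least 10. Between *gdf6Y* and EV, 1 was higher and 3 lower with *gdf6Y* (14.8%), beside 10.5% of the genes averaging 10 or more counts. All 4 were called in the filtered fit (background 9.31%). *Cenpf*, *Kif20b* and *Top2a* had log2 fold changes of -0.18 ± 0.03, -0.10 ± 0.03 and -0.10 ± 0.02, and *Birc5*, which encodes survivin, 0.12 ± 0.03 (edgeR adjusted p = 3.75e-08, 0.0116, 0.00297 and 0.00305, filtered 0.0274, 0.0273, 0.0109 and 0.0124). *Kif20b* was not called without *gdf6Y* replicate 5, and DESeq2 did not call *Cenpf* (adjusted p = 0.0552). For *Cenpf*, *gdf6Y* replicate 1 held 6103 normalized counts, above all EV samples (5520 to 5908). The other *gdf6Y* samples held 4733 to 4858.

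Between *gdf6Y* and del9, no Foxm1 target was called in this edgeR fit or with DESeq2, and 3 had an unadjusted p-value below 0.05 in edgeR. Between del9 and EV, 5 were higher and 3 lower with del9 (29.6%), beside 18.2% of the genes averaging 10 or more counts. The filtered fit, with a background of 16.7%, called all 8. *Mybl2*, *Birc5* and *Cenpb* had 0.17 ± 0.03, 0.13 ± 0.03 and 0.13 ± 0.03, and *Cenpf* -0.10 ± 0.03 (edgeR adjusted p = 3.06e-05, 0.000139, 0.000199 and 0.00221, filtered 0.0142, 0.00247, 0.00965 and 0.0354). The *Cenpf* call was lost with the gene length correction (log2 fold change -0.06) and without del9 replicate 4 (-0.08). The median of the list was 0.01, -0.0059 and 0.02 for *gdf6Y* against EV, *gdf6Y* against del9 and del9 against EV.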

How the data were processed

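The authors deposited whole-number counts of reads per gene without normalization. As their methods state, reads carried unique molecular identifiers and were aligned with STAR (2.7.10a) to GRCm39 with an Ensembl annotation. PCR duplicates were removed with UMI-tools, and uniquely mapped reads were counted on their strand with FeatureCounts (2.0.3). Groups came from the sample labels. Replicate 6 of *gdf6Y* and of del9 was not analysed here.

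Symbols, exonic lengths and transcript starts came from a GENCODE annotation of GRCm39, of another release than the one used for counting, which matched 56017 of 56748 identifiers. TPM used these lengths. Counts were compared with edgeR (4.0.16) in R (4.3.3), with TMM scaling, genes with 1 or more counts in a sample of the comparison, 2 groups per model, no covariates and Benjamini-Hochberg adjustment over all genes tested. Each standard error is the log2 fold change divided by the root of the F statistic. The steps were tested on simulated counts for the recovery and size of known changes, with no limit set on false calls. The depth per sample was 21486850 to 26444903 reads. At this depth, the standard error in *gdf6Y* against EV was 0.12 for *Foxs1*, with a mean count of 75.3. It was 0.03 for *Foxc1*, with a mean count of 3124.

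Alternatives were DESeq2 (1.42.0), RLE size factors, filterByExpr, at least 10 counts in every sample, the replicate number as a block, a gene length correction, both of these, all 3 groups in 1 model, and each replicate left out in turn, with the block and filterByExpr together added after seeing the data. Replicates were left out only in the fit without filterByExpr, which hardly used the spread of each gene.

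Genes named are the forkhead genes called in any comparison with their paralogs, and up to 4 called genes per list and comparison with the smallest adjusted p-value. Neighbours are named for *Foxc1* and *Foxo1*, and *Mylk2* for *Foxs1*. Those of *Foxj2*, *Foxo3* and *Foxp4* were not called in any comparison and are not named. *Foxk1* was added after its values were seen. The members and lists were chosen with earlier results of these data known. Promoters were read from the GRCm39 genome. Not every forkhead gene is reported here, and proteins were not used here.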

Additional observations from a re-analysis of the deposited data

Results flagged for a closer look

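The total count of del9 replicate 3 was 24608410, while the other del9 samples held between 25650188 and 26071045. Its gap to the nearest sample was 0.712 of the range of its group, past Dixon's critical value. Of 48 groups of values examined, the 15 expressed forkhead genes and the total count in each group, this was the 1 that passed, and chance alone gives about 1 in 20, or 2.4. The same library had the lowest normalized counts of *Foxc1* (2453) and *Foxo1* (1678) among the del9 samples. Both genes stayed called without it in the fit without filterByExpr. Over all genes, the counts of *gdf6Y* replicate 1 stood apart from those of the other *gdf6Y* samples. In pairs with it, the chi-square per degree of freedom was 7.55 to 11.4, and in the other *gdf6Y* pairs 2.67 to 4.43. The cause was not tested.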

How the results depend on the processing

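Over 8 alternatives and the left-out libraries, without block and filterByExpr together, 748 values of single genes kept direction and side of the threshold, 78 lost a call, 13 gained one and 5 changed sign, all 5 without a call. These were in *gdf6Y* against del9: *Foxj2* without *gdf6Y* replicate 2 (log2 fold change 0.000012, left-out range -0.048 to 0.000012), *Foxo3* without *gdf6Y* replicate 1 or del9 replicate 2 (-0.0082 and -0.0043, range -0.0082 to 0.072), and *Foxs1* without *gdf6Y* replicate 5 or del9 replicate 1 (-0.067 and -0.020, range -0.067 to 0.155). Calls of forkhead genes in del9 against EV numbered 3 with DESeq2, filterByExpr and at least 10 counts, and in *gdf6Y* against EV 5 with the length correction. FoxO regulators in *gdf6Y* against EV numbered 6 with DESeq2 and 5 with filterByExpr. FoxO targets numbered 5 with the length correction (*gdf6Y* against EV), and 1 with DESeq2, 0 with filterByExpr and 0 with at least 10 counts (*gdf6Y* against del9). Of all genes, 261 were called in *gdf6Y* against del9, 45 with filterByExpr and 81 with DESeq2. The labels do not say whether samples with the same number share a culture or day, and the fit behind the calls used no block. Deviations of same-number samples from their group means correlated at 0.004 to 0.198, 0.0994 to 0.163 and -0.03 to 0.162 (*gdf6Y* against EV, *gdf6Y* against del9, del9 against EV). In this order, 4, 4 and 2 of 5 pairs were above 0.1, and 3, 4 and 1 correlated best with their own number. Whether the number stands for a shared factor was not tested, and the calls depend on the block. Of all genes, the block called 289 higher and 372 lower in *gdf6Y* against del9, beside 155 and 106 without it. With the replicate block, which leaves out EV replicate 6, called were 5 forkhead genes, 9 FoxO regulators and 7 Foxm1 targets in *gdf6Y* against EV, 2 regulators and 1 Foxm1 target in *gdf6Y* against del9, and 12 regulators in del9 against EV. With block and length correction they were 6 forkhead genes, 5 regulators and 7 Foxm1 targets in *gdf6Y* against EV and 1 regulator in *gdf6Y* against del9. With block and filterByExpr together, chosen after seeing the data, they were 5 forkhead genes, 9 regulators, 10 FoxO targets and 8 Foxm1 targets in *gdf6Y* against EV, 2, 0, 6 and 0 in *gdf6Y* against del9, and 6, 12, 12 and 12 in del9 against EV, and the calls of *Ccng2* and *Cdkn1a* that filterByExpr alone lost were kept. Leaving out 1 replicate gave, for *gdf6Y* against EV, *gdf6Y* against del9 and del9 against EV, 1 to 4, 2 to 2 and 3 to 6 forkhead genes, 2 to 3, 0 to 1 and 5 to 8 regulators, 5 to 10, 1 to 5 and 10 to 14 FoxO targets, and 3 to 5, 0 to 1 and 6 to 9 Foxm1 targets. The cause of these changes was not tested. Depth limits statements on trace genes, which have at most 7 reads in a sample.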
